A study of Medicago truncatula with 6 samples.

Results

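The 6 genes described here encode parts of the photosynthetic machinery, and their transcripts were measured in roots of *Medicago truncatula* grown with or without the Mucoromycotina fungus *Gongronella* sp. w5 (w5). Subunits N and XI of the photosystem I reaction center (PsaN, Medtr3g095540, and PsaL, Medtr7g079900) and a photosystem II biogenesis protein (Medtr2g089795) belong to the photosystems. Phosphoribulokinase (PRK, Medtr5g027530), glyceraldehyde-3-phosphate dehydrogenase B (GAPDH B, Medtr3g115920) and a rubisco activase (Medtr5g080450) belong to the Calvin cycle. They were picked as the 3 genes with the lowest p in each of both gene groups of an earlier list. That list came from a comparison of w5 roots with control roots in these same libraries. It lacked a further Calvin cycle gene (Medtr7g084800), which had a lower p here than the 3 Calvin cycle members. The difference of the 6 genes between w5 and control roots was therefore fixed by the choice, and it is given as a description without a test. All 6 passed the filter on low counts, which kept 16905 of the 50443 genes in the table.

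Photosystems I and II are pigment-protein complexes of the chloroplast thylakoid that use light to move electrons, and light-harvesting chlorophyll proteins feed them with energy. The Calvin cycle uses the ATP and NADPH made by this electron flow to fix carbon dioxide through rubisco. Nearly all of their nuclear genes are most active in green tissue, and roots that are kept in the light can also form chloroplasts.

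Seedlings of the A17 line were grown on agar plates with sugar-free MSR medium on one side and glucose-containing VI medium on the other. In the w5 group, a mycelial plug was placed on the VI side and the roots in contact with the hyphae were taken at 16 dpi. Control plants were untreated and grew alone on MSR medium, and the methods do not say whether their plates held VI medium too. The plates stood in a lit incubator with a dark period. The labels give no sampling time for the control roots. For root RNA the methods of the study state 16 dpi only for roots in contact with w5, so equal age was not shown. The comparison asks which root transcripts change on contact with w5. Each group had 3 biological replicates, and how many plants went into a library is not given in the sources used here.

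The libraries held between 6547753 and 6822646 counts in w5 roots, against between 6983430 and 7539956 counts in control roots. The factors that scaled them for composition (TMM) lay between 0.984 and 1.01. Within a group, the libraries varied beyond counting noise, since the chi-square per gene of each pair was 9.29 to 29.4, and all were kept as replicates. The 70 photosynthesis genes in the study's list of changed genes took 0.462%, 0.443% and 0.527% of the counts in w5 replicates 1, 2 and 3, against 1.65%, 1.54% and 0.899% in control replicates 1, 2 and 3. The labelled tissue could not be checked against root or shoot markers, since the sources used here pair no gene ID with such a name, and the part of green or shoot tissue in the results was not tested. In RNA from bulk root samples, fewer green cells and less RNA per green cell cannot be told apart.

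PsaN, which lies on the lumenal side of photosystem I near the site where plastocyanin docks, had 43, 41 and 41 counts in w5 replicates 1, 2 and 3, against 279, 200 and 160 counts in control replicates 1, 2 and 3. Its level was 6.29 ± 0.278 CPM in w5 roots and 29.3 ± 6.97 CPM in control roots (SD, n = 3 each), where CPM are counts per 1e+06 counts of the tested genes after TMM scaling. The w5 mean was 78.6% below the control mean, with a log2 fold change of -2.22 (SE 0.24). The groups lay far apart, as the lowest control library held 3.51 times the CPM of the highest w5 library.

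PsaL, the subunit where plant photosystem I receives energy from mobile light-harvesting complexes, had 252, 251 and 222 counts in w5 replicates 1, 2 and 3, against 1017, 852 and 558 counts in control replicates 1, 2 and 3. It averaged 36.4 ± 2.33 CPM in w5 roots and 111 ± 27.8 CPM in control roots (SD, n = 3 each), a log2 fold change of -1.61 (SE 0.21). The w5 libraries stood close together, while the control libraries spread 1.67 times from the lowest to the highest. The photosystem II biogenesis protein is named for the assembly of the complex and is not one of its subunits. It had 180, 181 and 201 counts in w5 replicates 1, 2 and 3, against 912, 605 and 476 counts in control replicates 1, 2 and 3. Its level was 28.3 ± 2.17 CPM in w5 roots and 91.3 ± 26.5 CPM in control roots (SD, n = 3 each), a log2 fold change of -1.69 (SE 0.22). For both genes every w5 library lay below every control library, with gaps of 2.09 times for PsaL and 2.24 times for the biogenesis protein.

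PRK, which regenerates the carbon dioxide acceptor of rubisco, had the widest spread of the 6 genes in the controls. It had 718, 755 and 575 counts in w5 replicates 1, 2 and 3, against 5241, 2508 and 1943 counts in control replicates 1, 2 and 3. It averaged 103 ± 13.0 CPM in w5 roots and 441 ± 220.0 CPM in control roots (SD, n = 3 each), a log2 fold change of -2.10 (SE 0.33). Control replicate 1 alone stood high, at 692 CPM beside 352 and 280 CPM in control replicates 2 and 3. Without control replicate 1 the log2 fold change of PRK was -1.61.

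GAPDH B, a subunit of the chloroplast enzyme that carries out the reducing step of the cycle, differed the least between the groups. It had 1637, 1629 and 2165 counts in w5 replicates 1, 2 and 3, against 6185, 5220 and 3466 counts in control replicates 1, 2 and 3. Its level was 273 ± 50.0 CPM in w5 roots and 683 ± 164 CPM in control roots (SD, n = 3 each), a log2 fold change of -1.32 (SE 0.23). Its groups also came closest to each other, with a gap of 1.51 times between w5 replicate 3 and control replicate 3. Rubisco activase, which frees rubisco from bound inhibitory sugar phosphates, had 234, 232 and 263 counts in w5 replicates 1, 2 and 3, against 1174, 881 and 460 counts in control replicates 1, 2 and 3. It averaged 36.7 ± 3.16 CPM in w5 roots and 115 ± 45.0 CPM in control roots (SD, n = 3 each), a log2 fold change of -1.65 (SE 0.29). Here control replicate 3 stood apart from the other controls, at 66.3 CPM beside 155 and 124 CPM.

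**Figure D1:**
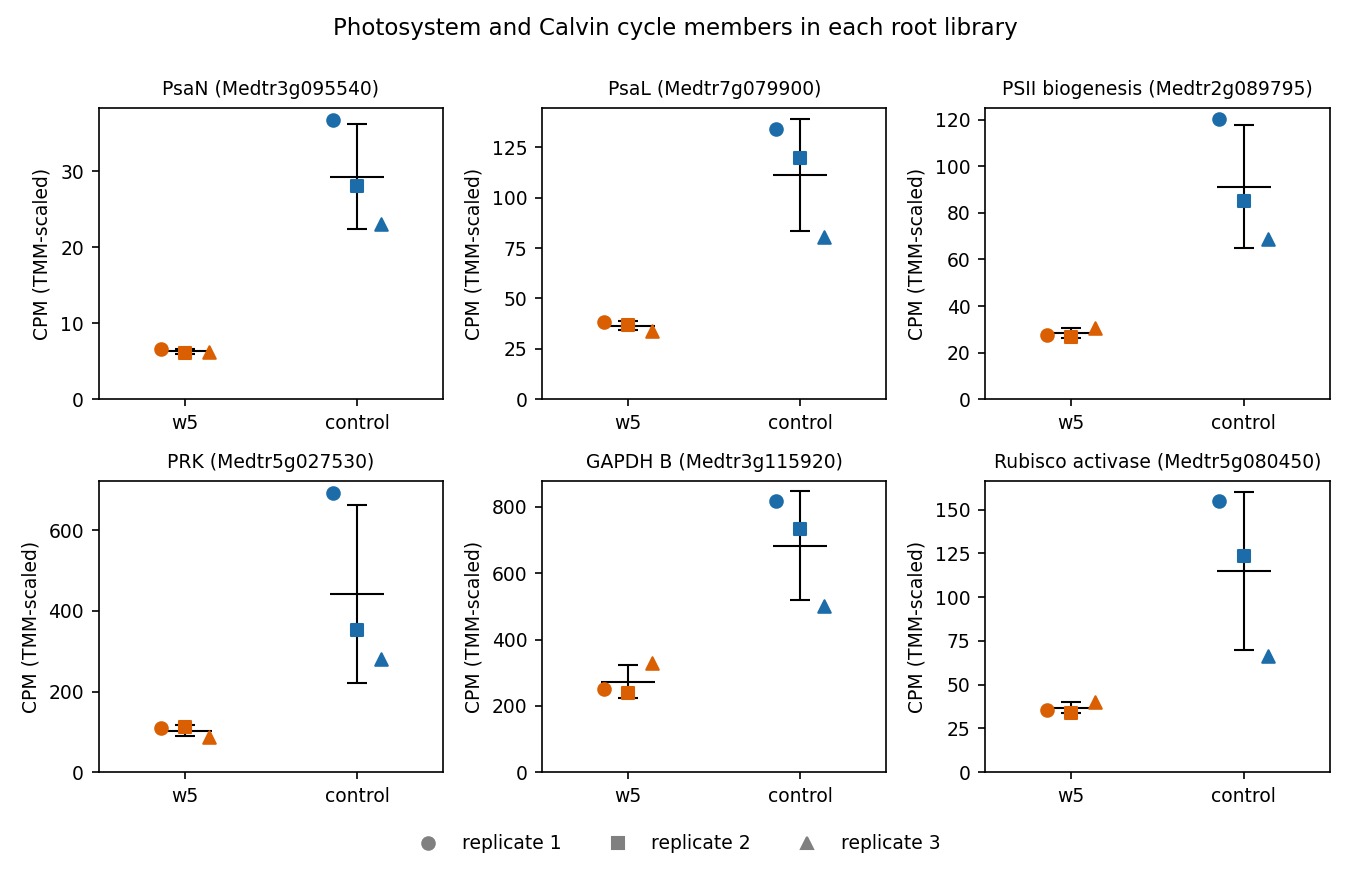
CPM of the 6 genes (vertical axes, linear from 0) in each w5 library (left, orange) and each control library (right, blue). Symbols mark the replicate number, and bars are the mean ± SD of 3 libraries. In every panel the 3 w5 points lie below the 3 control points, and control replicate 1 is highest and control replicate 3 lowest.

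In all 6 genes every w5 library lay below every control library, which was the case in 9.04% of all tested genes, while every w5 library lay above every control library in 7.02%. All 6 also had an unadjusted p under 0.05 and a log2 fold change under -1, as 2.73% of all tested genes did. Both counts follow from how the genes were picked.

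Per transcript length, on the FPKM scale of the authors, the level of the members spanned a wide range in both groups. GAPDH B (100.5 FPKM) was the highest on average in w5 roots, above PRK (64.4 FPKM), and PsaN (6.72 FPKM) was the lowest. In control roots PRK (279 FPKM) stood above GAPDH B (254 FPKM) on average, and PsaN (31.6 FPKM) was again the lowest. PRK and GAPDH B did not overlap in w5 roots, with 54.3 to 69.8 FPKM for PRK and 88.5 to 120.3 FPKM for GAPDH B. In control roots they overlapped widely, with 175 to 438 FPKM for PRK and 184 to 304 FPKM for GAPDH B. PsaL lay between these and the rest, at 38.5 FPKM in w5 roots and 119 FPKM in control roots. Rubisco activase and the photosystem II biogenesis protein overlapped in both groups, at means of 20.6 and 19.8 FPKM in w5 roots and of 65.4 and 64.6 FPKM in control roots.

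The 6 genes shared the order of the control libraries. In each of them control replicate 1 was the highest and control replicate 3 the lowest, while 14.9% of all tested genes had their controls in this order. The members were picked as lower in w5 roots, and the order was more frequent among such genes. Of the 1529 tested genes with every w5 library below every control library, 492 had it (2.91% of all tested genes). Which step was the larger differed between the genes. For PRK control replicate 1 held 1.97 times the CPM of replicate 2, and replicate 2 held 1.26 times that of replicate 3. Rubisco activase had the opposite balance, with 1.25 times between replicates 1 and 2 and 1.86 times between replicates 2 and 3. PsaL and GAPDH B moved almost in step, with 1.12 and 1.11 times between replicates 1 and 2 and with 1.49 and 1.47 times between replicates 2 and 3. The w5 libraries had no common order, since 3 of the genes were highest in w5 replicate 3, 2 in w5 replicate 1 and 1 in w5 replicate 2. All values come from 3 libraries a group, and libraries share depth and RNA quality across genes, so that no correlation was taken.

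**Figure D2:**
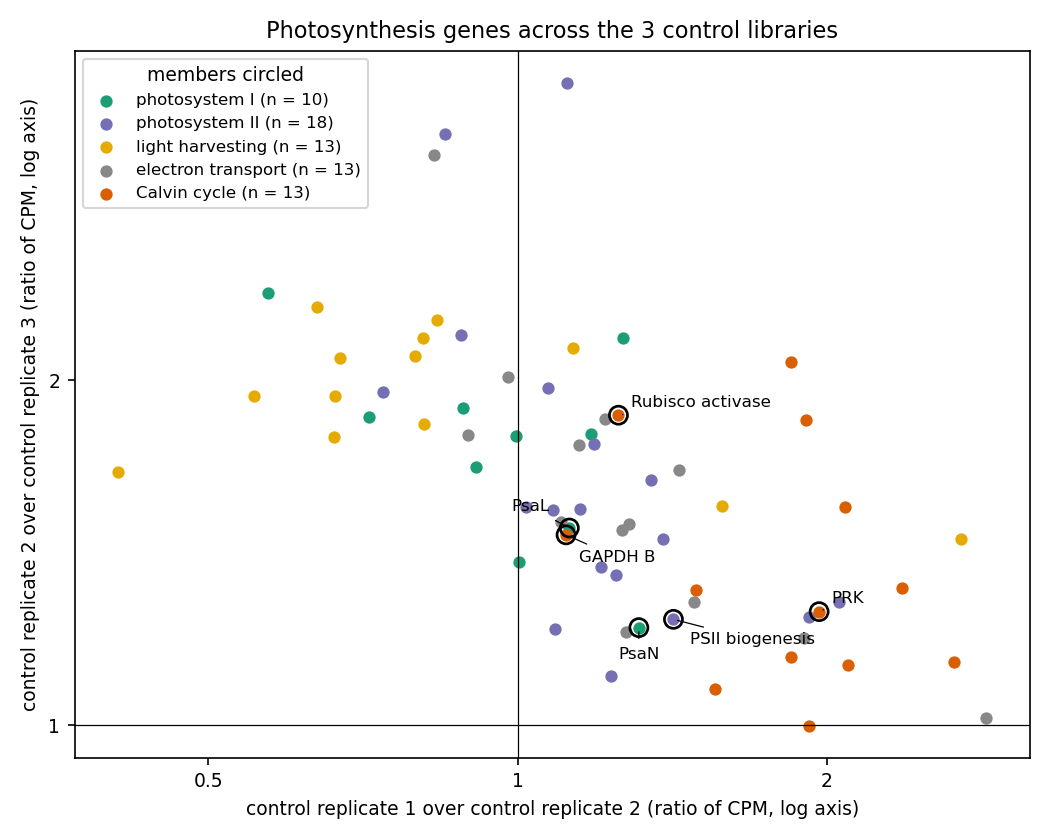
Ratio of CPM between control replicates 1 and 2 (horizontal, log axis) against the ratio between control replicates 2 and 3 (vertical, log axis) for the 67 tested photosynthesis genes, coloured by list, with the 6 members circled and named. The members lie right of 1 and above 1, while 10 of the 13 light-harvesting genes lie left of 1.

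The ratios between the 6 genes were compared library by library in all 15 pairs. PsaL and GAPDH B held nearly the same ratio in the 3 controls, within 0.03 on the log2 scale, but moved apart by 0.59 among the w5 libraries. The photosystem II biogenesis protein and rubisco activase showed the reverse, with 0.03 among the w5 libraries and 0.59 among the controls. PRK and GAPDH B, enzymes that can join in one complex in the chloroplast, had the ratio that moved the most in both groups, by 0.80 among the w5 libraries and by 0.82 among the controls. On average PRK was also lower relative to GAPDH B in w5 roots, with a mean log2 ratio of CPM of -1.40 in w5 roots and -0.71 in control roots. The median pair moved by 0.34 among the w5 libraries and by 0.50 among the controls.

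The spread within a group was wider in control roots than in w5 roots for each of the 6 genes. The SD of log2 CPM of PsaN was 0.06 over the w5 libraries and 0.34 over the control libraries, and that of rubisco activase was 0.12 over the w5 libraries and 0.63 over the control libraries. GAPDH B showed the smallest contrast, with 0.25 over the w5 libraries and 0.37 over the control libraries. Over all tested genes the median SD was 0.26 in w5 roots and 0.30 in control roots, and the control SD was the larger in 57.6% of the genes. The w5 counts of some members varied no more than counting alone would give. A chi-square per degree of freedom near 1 marks that level, and it was 0.0819 for PsaN, 0.977 for PsaL and 1.10 for the photosystem II biogenesis protein in w5 roots, against 12.0, 49.3 and 55.7 in control roots. PRK and GAPDH B exceeded it in both groups, with 10.8 and 60.5 in w5 roots and 794 and 280.2 in control roots. Rubisco activase had 1.81 in w5 roots and 125 in control roots. The median over all tested genes was 4.07 in w5 roots and 5.75 in control roots. At the same relative spread this measure grows with the count, so that it does not compare the spread of genes or groups with unlike counts. The genes were picked by p, which a small spread within the groups lowers, so these values are not independent of the choice.

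**Figure D3:**
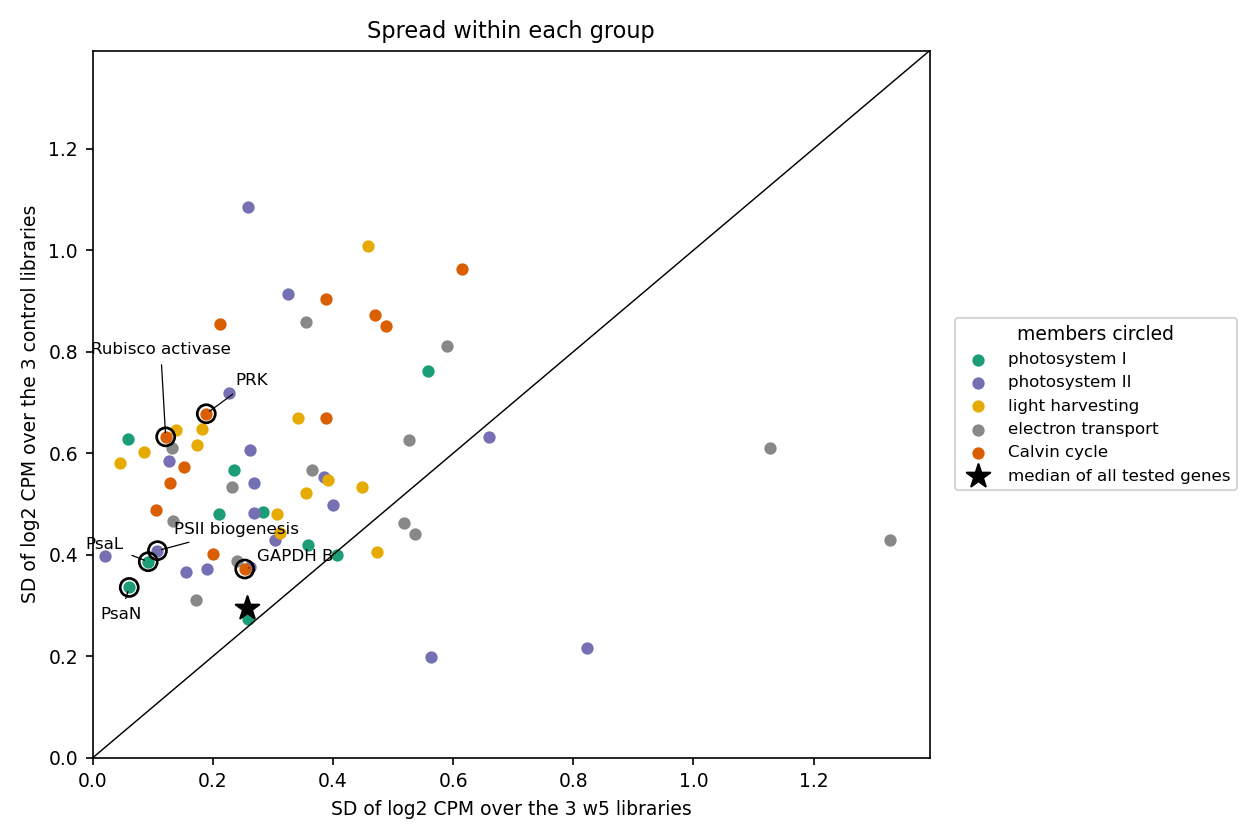
SD of log2 CPM over the 3 w5 libraries (horizontal) and over the 3 control libraries (vertical) for 67 photosynthesis genes, coloured by list, with the 6 members circled and named, the median of all tested genes as a star and the line of equal SD. All 6 members and 58 of the 67 genes lie above the line.

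The study's list of changed genes names 70 genes of photosynthesis in 5 groups, and 67 of them passed the filter. The list was made from these libraries, so that its genes are not independent evidence of a direction. No test was run on them as a set. In the quasi-likelihood fit of all genes, all 67 had an unadjusted p under 0.05 and a log2 fold change under -1. Of all tested genes 2.73% did. Their median log2 fold change was -1.55 beside -0.01 over all tested genes. Every w5 library lay below every control library in 63 of the 67, beside 9.04% of all tested genes. Both counts follow in part from the choice of the list. The count past the thresholds depended on the libraries kept. It was 57, 58 and 70 without control replicate 1, 2 and 3, and 66, 63 and 66 without w5 replicate 1, 2 and 3. Each of these fits filtered the genes anew. Photosystem I had 10 tested genes with a median log2 fold change of -1.36, in which PsaN (-2.22) was the lowest. Photosystem II had 18 with a median of -1.54, and light harvesting had 13 with a median of -1.45. Electron transport had 13 with a median of -1.74, and the Calvin cycle had 13 with a median of -1.71. The log2 fold change of GAPDH B (-1.32) was thus closer to 0 than the median of its group, that of PRK (-2.10) was farther from 0, and that of rubisco activase (-1.65) lay near it.

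**Figure D4:**
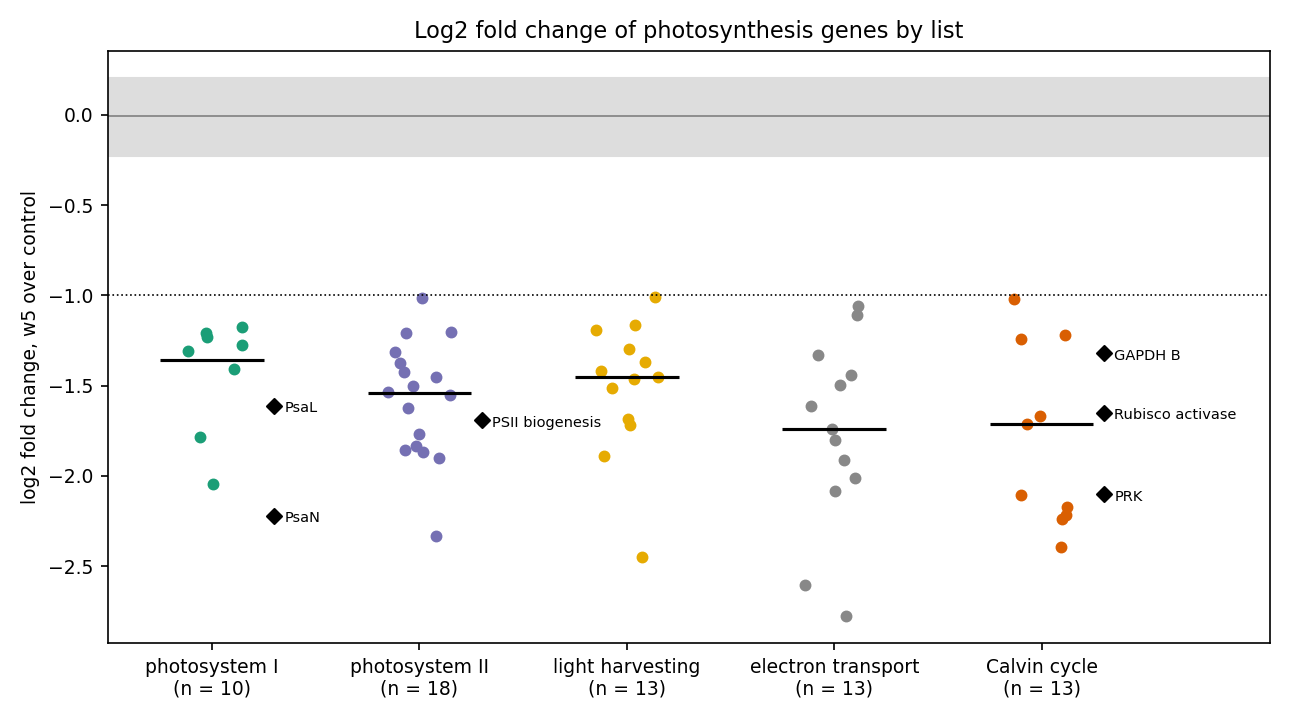
Log2 fold change of w5 over control (vertical) for the 67 tested photosynthesis genes in 5 lists, with the 6 members as black diamonds and list medians as bars. The grey band runs from the lower to the upper quartile of all tested genes, the grey line is their median of -0.01, and the dotted line is at -1. The study's list was bounded by the size of the log2 fold change and holds genes of both directions. The size of these differences therefore follows from selection.

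The order of the controls was not the same in all 5 groups. Control replicate 3 was the lowest control in 65 of the 67 genes, beside 31.9% of all tested genes. Control replicate 1 was the highest in all 13 Calvin cycle genes, beside 34.3% of all tested genes. Control replicate 2 was the highest in 10 of the 13 light-harvesting genes, beside 36.9% of all tested genes. Summed over the Calvin cycle group, the level was 1130, 1036 and 1058 CPM in w5 replicates 1, 2 and 3, against 5352, 3126 and 2338 CPM in control replicates 1, 2 and 3. The light-harvesting group had 1453, 1409 and 2086 CPM in w5 replicates 1, 2 and 3, against 4219, 5792 and 2844 CPM in control replicates 1, 2 and 3. Photosystem I was split, with control replicate 1 the highest in 5 of its 10 tested genes, PsaN and PsaL among them, and control replicate 2 the highest in the other 5. Outside the 6 members, 39 of 61 tested photosynthesis genes (63.9%) had control replicate 1 above 2 and 2 above 3.

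The members took different shares of their groups, where each sum holds only the tested genes of that group in the study's list of changed genes. The shares are therefore not shares of the whole photosystem or cycle. PsaN made up 1.60 ± 0.371% of the summed CPM of photosystem I in w5 roots and 2.75 ± 0.444% in control roots (SD, n = 3 each). PRK made up 9.57 ± 1.20% of the Calvin cycle sum in w5 roots and 12.1 ± 0.836% in control roots. GAPDH B ran the other way, with 25.5 ± 5.03% in w5 roots and 20.03 ± 4.26% in control roots, which overlap within their SD. The biogenesis protein held 2.42 ± 0.0158% of photosystem II in w5 roots and 3.03 ± 0.490% in control roots. The shares of PsaL in photosystem I and of rubisco activase in the Calvin cycle overlapped between the groups within their SD, with 9.29 ± 2.38% for PsaL in w5 roots and 10.3 ± 0.652% in control roots, and 3.42 ± 0.337% for the activase in w5 roots and 3.23 ± 0.630% in control roots.

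The genes next to the members in order of p had like patterns. In the photosystem group this was an oxygen-evolving complex protein of the thylakoid lumen (Medtr7g023290), with 88, 81 and 61 counts in w5 replicates 1, 2 and 3, against 398, 300 and 216 counts in control replicates 1, 2 and 3. Its log2 fold change of -1.86 was larger in size than that of PsaL and of the biogenesis protein. Photosystem I subunit II (Medtr5g006130), the docking site of ferredoxin, had 340, 461 and 480 counts in w5 replicates 1, 2 and 3, against 1429, 1341 and 941 counts in control replicates 1, 2 and 3. Control replicates 1 and 2 of this gene were nearly equal in CPM, where PsaN differed by 1.31 times.

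In the Calvin cycle a further GAPDH gene (Medtr7g084800), which was not in the earlier list, had a lower p than the 3 members. It had 1608, 1576 and 1751 counts in w5 replicates 1, 2 and 3, against 8484, 5348 and 3966 counts in control replicates 1, 2 and 3. With 147 FPKM in w5 roots and 486 FPKM in control roots it was the most abundant per length of the 13 Calvin cycle genes in the study's list, above GAPDH B. Its log2 fold change was -1.71, and Calvin cycle genes outside that list were not examined. After the members came a small chain of rubisco (Medtr6g018310), part of the enzyme that binds carbon dioxide, with 611, 546 and 455 counts in w5 replicates 1, 2 and 3, against 4642, 2094 and 1316 counts in control replicates 1, 2 and 3. Its log2 fold change was -2.17, and -1.56 without control replicate 1. A further rubisco activase (Medtr3g068030) had 1042, 957 and 562 counts in w5 replicates 1, 2 and 3, against 8077, 2855 and 2445 counts in control replicates 1, 2 and 3. It stood out by control replicate 1, which held 2.66 times the CPM of replicate 2, so that its log2 fold change was -2.24 with all libraries and -1.54 without that library. Per length it was the more abundant activase, at 44.8 FPKM in w5 roots and 213 FPKM in control roots, beside 20.6 FPKM in w5 roots and 65.4 FPKM in control roots for the member. CP12 (Medtr1g087030), the small protein that binds PRK and GAPDH in the dark, had 112, 69 and 47 counts in w5 replicates 1, 2 and 3, against 761, 388 and 182 counts in control replicates 1, 2 and 3. Its log2 fold change was -2.40, and -1.80 without control replicate 1. A further gene for photosystem I subunit N (Medtr1g106075) was hardly detected, with 2, 4 and 5 counts in w5 roots and 23, 19 and 8 counts in control roots, and was removed by the filter. No source used here gives the rule for counting reads that fit several genes, and the split of counts between both GAPDH genes, both activases and both subunit N genes is uncertain.

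The most abundant gene of each group beside the Calvin cycle, by the mean FPKM over all 6 libraries, is given next. In each of them every w5 library lay below every control library. This was the case in 63 of the 67 tested photosynthesis genes and in 9.04% of all tested genes. As they come from the study's list of changed genes, it follows in part from the choice. A light-harvesting chlorophyll a/b-binding protein (Medtr4g094605) averaged 704 FPKM in w5 roots and 1904 FPKM in control roots, with a log2 fold change of -1.42, and was highest in control replicate 2. Plastocyanin (Medtr3g114850), the copper protein that carries electrons to photosystem I, averaged 308 FPKM in w5 roots and 1084 FPKM in control roots, with a log2 fold change of -1.80. An oxygen-evolving enhancer protein of photosystem II (Medtr8g078870) averaged 242 FPKM in w5 roots and 715 FPKM in control roots, with -1.55. In w5 roots alone another enhancer protein (Medtr3g449930) was higher than it, at 264 FPKM, with 661 FPKM in control roots. Photosystem I subunit V (Medtr3g010000) averaged 96.3 FPKM in w5 roots and 336 FPKM in control roots, with -1.79. Lowest in p in the groups without a member were another light-harvesting protein (Medtr3g088040), at 67.6 FPKM in w5 roots and 195 FPKM in control roots, and the gamma subunit of an ATP synthase (Medtr1588s0010), at 61.8 FPKM in w5 roots and 208 FPKM in control roots.

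The 16905 tested genes were ranked by the root mean square difference between their centred log2 CPM and the mean centred profile of the 6 members over the 6 libraries. This profile was -0.84, -0.90 and -0.82 in w5 replicates 1, 2 and 3, and 1.29, 0.88 and 0.39 in control replicates 1, 2 and 3. The median gene differed from it by 0.94. The nearest gene was the further GAPDH gene (Medtr7g084800), at 0.0635. The members themselves were ranked between 2 and 52. Of the 20 nearest genes 12 were in the 5 photosynthesis groups, 3 of them members that make up the profile, and of the 100 nearest 29 were, 6 of them members. These groups held 67 of the 16905 tested genes (0.396%), but they were drawn from the study's list of changed genes. All 67 were among the 462 genes lower in w5 roots at an unadjusted p under 0.05 and a log2 fold change under -1. The profile is itself a fall in w5 roots, so the share of all tested genes is no fair base, and no enrichment was tested. All 100 were in the study's list of 790 changed genes, which the size of the difference brings with it.

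The 5 nearest genes outside the photosynthesis groups were picked for their likeness to this profile, which brings the order of the controls with it. The nearest was a plastid lipid-associated protein (Medtr1g116320, 0.0988), with 42, 53 and 48 counts in w5 replicates 1, 2 and 3, against 254, 181 and 117 counts in control replicates 1, 2 and 3. Next were proteins A and B of the stem-loop-binding proteins of 41 kDa, which bind chloroplast RNA. Protein A (Medtr1g072260, 0.108) averaged 17.3 ± 0.480 CPM in w5 roots and 54.9 ± 19.5 CPM in control roots (SD, n = 3 each), and protein B (Medtr7g111860, 0.113) averaged 38.1 ± 5.24 CPM in w5 roots and 121 ± 34.6 CPM in control roots. An acyl carrier protein (Medtr8g099920, 0.147), which holds the growing chain in fatty acid synthesis, averaged 13.6 ± 2.23 CPM in w5 roots and 43.6 ± 17.2 CPM in control roots. The H protein of the glycine cleavage system (Medtr5g014260, 0.147), an enzyme of photorespiration in mitochondria, averaged 60.6 ± 6.82 CPM in w5 roots and 188.9 ± 65.7 CPM in control roots. Being near in profile says nothing of a shared function or control.

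The 6 genes lie on chromosomes 2, 3, 5 and 7 by their IDs, and PsaN and GAPDH B share chromosome 3 and PRK and rubisco activase chromosome 5. Their neighbours by ID, 3 on each side, did not take part in the choice of the members and could be tested. Of these 36 genes 16 were tested, and their median log2 fold change was -0.14. At an unadjusted p under 0.05 with a log2 fold change beyond 1 in size, 1 was lower and 1 was higher in w5 roots, beside 2.73% and 2.03% of all tested genes. These 2 were also the only neighbours with an unadjusted p under 0.05 in this test. None had an adjusted p under 0.05, as 0.00592% of all tested genes did in the lower and 0.0118% in the higher direction (edgeR's quasi-likelihood test with Benjamini-Hochberg adjustment over all tested genes). The lower one was a RING-H2 zinc finger gene (Medtr3g095560) beside PsaN, with 1.65 CPM in w5 roots and 6.14 CPM in control roots, a log2 fold change of -1.88 and an adjusted p of 0.144 in edgeR's quasi-likelihood test. DESeq2 and edgeR's exact test each called 1 of the 16 at an adjusted p under 0.05, which was this gene, since its adjusted p depended on the tool, being 0.0328 with DESeq2 and 0.0154 with edgeR's exact test, within a range of 0.0154 to 0.380 over 17 alternatives. The higher one was a gene of the tyrosine phosphatase family (Medtr7g079970) beside PsaL, with 22.2 CPM in w5 roots and 9.31 CPM in control roots, a log2 fold change of 1.25 and an adjusted p of 0.273 in the quasi-likelihood test (0.0782 to 0.567 over the alternatives).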

How the data were processed

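Root RNA was sequenced in 3 w5 and 3 control libraries. The study's methods give a strand-specific kit for total RNA and paired reads from an Illumina HiSeq instrument. The authors deposited raw counts per gene as whole numbers. The FPKM in the same table were derived by the authors from count, gene length and library total. A recalculation of 131099 values above 0 differed by at most 5.09e-15 in relative terms, and FPKM were used to compare levels between genes. The submitters' processing notes list Bowtie 0.12.2 and a mouse build (mm8), whereas the methods refer to the *M. truncatula* genome database. How reads were counted, with which strand setting, which rule for reads that fit several genes and which annotation, is not given in the sources used here. No coordinates are therefore printed.

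The counts were analysed in R 4.3.3 with edgeR 4.0.16. Genes were kept by filterByExpr, 25066 of 50443 genes having no count in any library, and library totals over the kept genes were scaled by TMM. The groups were compared by the robust quasi-likelihood test, two-sided and with no term but the condition, with Benjamini-Hochberg adjustment over 16905 genes and a common biological coefficient of variation of 0.262. P-values set the difference between the groups against the spread between these libraries within a group. The script was tested on simulated data. SD of log2 CPM used a prior count of 2. Alternatives used DESeq2 1.42.0, limma 3.58.1 (voom), edgeR's exact test, other scaling factors, other filters, a replicate block and fits that each left out 1 library. The quasi-likelihood test without robust estimation was chosen after seeing the data.

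The members and lists were chosen with earlier results of these data known. Named are the 6 members, CP12, in each photosynthesis list the gene with the highest FPKM and the next gene after the members by p, and the 5 genes nearest to the members' profile outside the lists. The further subunit N and activase genes, a further oxygen-evolving enhancer gene, and the neighbours past the thresholds, were named after their values were seen. Photosynthesis lists and gene names were taken from the annotation in the study's list of changed genes. Homologues by protein sequence, lists by product name and markers of root and shoot were planned and were not analysed here, since the reference table at hand holds no sequences and no product names.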

Additional observations from a re-analysis of the deposited data

How the results depend on the processing

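The log2 fold changes of the 6 members stayed negative in all 17 alternatives, with ranges from -2.36 to -2.01 for PsaN, -1.79 to -1.44 for PsaL, -1.85 to -1.43 for the photosystem II biogenesis protein, -2.34 to -1.61 for PRK, -1.49 to -1.16 for GAPDH B and -1.92 to -1.36 for rubisco activase, the ends of which came from leaving out a library. The ratio of the highest to the lowest control library moved by less than the control SD in all 12 recalculations from the authors' FPKM or with RLE factors.

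Counts over all genes depended more on the settings. At an unadjusted p under 0.05 and a log2 fold change over 1, 344 genes were higher in w5 roots and 519 without a filter. At an adjusted p under 0.05 there were 3 genes, but 195 without a filter, 540 with DESeq2, 529 with edgeR's exact test and 176 with the replicate block. With a library left out in turn there were between 1 and 103, with 103 found without control replicate 3. Without control replicate 1, 368 genes were lower and 492 higher in w5 roots, against 462 and 344 with all libraries. The labels do not say whether the replicate numbers pair the samples. The deviations of libraries with the same number had correlations of 0.23, -0.05 and -0.03, and those with unlike numbers ranged from -0.23 to 0.24. With 3 libraries a group these values cannot decide whether the samples are paired. The cause of the changes in the counts over all genes was not tested. In w5 roots, where PsaN had only 41 to 43 counts a library, the spread of PsaN, PsaL and the photosystem II biogenesis protein was at or near the level of counting noise, so that depth limits how finely their w5 libraries can be compared.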
